A study of Arabidopsis thaliana with 222 samples.

Results

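The data described here are the root transcriptomes of nph4-1 seedlings grown with the bacterial strain L359, set against nph4-1 roots without bacteria (NB). They comprise 12 of the 222 libraries of the series, chosen by their labels alone: 6 of nph4-1 L359 and 6 of nph4-1 NB. The same comparison in wild type (6 Col 0 L359 and 6 Col 0 NB libraries) gives the response that the nph4-1 response was tested against, and 12 lbd16-1 libraries (6 with L359, 6 NB) and 12 nph4-1 libraries with other strains (6 with L344, 6 with RCL115) show how far it is shared. Every count, level and test below is over all genes of the table, of which 21635 of 32311 passed the filter on low counts and 3010 had no read in any library.

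The nph4-1 line carries a lesion in ARF7 (also NPH4, AT5G20730), in the Col-0 background, and lbd16-1 one in LBD16, also in Col-0, so both mutant lines share the wild-type background and each stands for 1 allele. ARF7 is an auxin response factor: it binds the promoters of auxin-responsive genes, is held back by Aux/IAA repressors, and switches on LBD16 and its relatives when lateral roots are founded, so nph4-1 roots branch poorly. L359 is a Flavobacterium isolate (phylum Bacteroidota) that the study lists without a known operon for making or degrading the auxin indole-3-acetic acid. Seedlings were germinated axenically and moved to plates that held one strain, or the buffer alone for NB, and whole root systems were harvested. The question was how bacteria alter root branching when the plant's own auxin-dependent path is impaired, with ethylene among the hormones considered.

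Each of the groups used here held 6 libraries, and their totals ran from 10255732 to 25605850 assigned reads (14423864 to 20390978 in nph4-1 L359, 15179759 to 24171763 in nph4-1 NB). Pairs of nph4-1 L359 libraries correlated at 0.991 to 0.996 over log2 CPM and pairs of nph4-1 NB libraries at 0.992 to 0.995. Col 0 NB was less even (0.976 to 0.993), and 2 of its libraries, replicates 4 and 5, held 2218 and 155 CPM (read counts scaled to the library total) of the ribosomal RNA gene AT2G01020, where the other 4 held 7.20 to 28.9 CPM. The number of response differences from Col 0 is therefore also given without these 2 libraries. All 15 root markers tested were detected in nph4-1, and the 18 leaf photosynthesis genes used as shoot markers summed to 817 to 1046 CPM in nph4-1 L359, against 746 to 1024 CPM in nph4-1 NB. Their sum reached 2385 CPM in Col 0 L359 replicate 4, and without that library the response difference from Col 0 described below called 789 genes, against 603 with it. Library titles run from 1 to 222, and each group has 3 libraries numbered up to 111 and 3 numbered from 112. The labels do not say what the 2 ranges stand for, so the counts over all genes, those of the lists with several calls and selected genes are also given from separate fits to each range. ARF7 itself was still counted in nph4-1, at 51.8, 56.3 and 61.5 CPM (lowest, median and highest of 6) with L359, against 49.0, 50.5 and 52.9 CPM in NB, and at 63.6 to 103 CPM over the 12 Col 0 libraries. Its level did not pass the test between nph4-1 L359 and NB (log2 fold change 0.16 ± 0.08 SE, edgeR adjusted p = 0.21), though it was called when only the groups compared were fitted, and where the lesion lies relative to the counted reads is not given in the sources used here.

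With L359, 2867 genes passed the test in nph4-1 roots, which is 13.3% of those tested (edgeR quasi-likelihood test, Benjamini-Hochberg adjusted p under 0.05). Of these, 1662 (7.68%) were higher and 1205 (5.57%) lower than in nph4-1 NB. The changes were modest: the median absolute log2 fold change of the called genes was 0.44, and 461 changed by at least 1 on the log2 scale, 379 of them higher and 82 lower. In 1827 genes (8.44%) the 6 L359 and 6 NB libraries did not overlap in CPM. Among libraries with low numbers alone 1123 genes were called, and among those with high numbers 2315. In wild type, the same comparison called 3265 genes (15.1%), 8.45% of those tested higher and 6.64% lower, and in lbd16-1 3517 (16.3%). The response of nph4-1 differed from that of Col 0, by the interaction term, in 603 genes (2.79%): 274 (1.27%) had the more positive response in nph4-1 and 329 (1.52%) the more negative. Without Col 0 NB replicates 4 and 5 the interaction called 490 genes (188 positive, 302 negative), and within the low and high number ranges 89 and 712.

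The genes with the largest increases included peroxidases, receptor-like kinases and other genes of the cell surface. AT3G03670, which encodes a class III peroxidase (chromosome 3, 901728 to 903411, TAIR10.1), had 29.4, 39.1 and 41.5 CPM (lowest, median and highest) in nph4-1 L359, against 0.550, 1.52 and 3.82 CPM in nph4-1 NB. AT2G29220, a lectin receptor kinase gene (chromosome 2, 12562629 to 12564691), had 43.9, 48.9 and 63.1 CPM with L359, against 1.87, 2.70 and 11.2 CPM in NB. Neither gene's groups overlapped. AT3G03670 was 18.9-fold higher (log2 fold change 4.24 ± 0.48 SE, adjusted p = 9.5e-13) and AT2G29220 10.4-fold higher (3.38 ± 0.50 SE, adjusted p = 3.0e-08). The increases were 3.70 and 5.17 log2 units for AT3G03670 in the low and high number ranges, and 2.74 and 4.57 for AT2G29220.

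The other genes of the 12 with the largest increases, all without overlap between groups by the rule that chose them, had log2 fold changes from 2.27 to 3.2. They include a second class III peroxidase, AT1G49570 (7.24, 11.2 and 20.1 CPM with L359, against 1.51, 1.65 and 3.00 CPM in NB), the germin-like cupin AT5G38940 (30.5, 37.3 and 45.2 CPM, against 4.72, 6.45 and 8.32 CPM) and the extensin-like gene AT1G26240, whose product belongs to a family of cell wall glycoproteins (102, 150.0 and 187 CPM, against 10.2, 19.0 and 49.0 CPM). AT1G26240 was not called among low-numbered libraries alone, where its log2 fold change was 1.8. An aspartyl protease gene, AT5G48430, stood at 120.3, 167 and 178 CPM with L359, against 20.0, 27.1 and 50.9 CPM in NB. AT3G60270 (a cupredoxin), AT5G41300 (related to receptor-like kinases), AT2G34000 (a RING finger protein), AT3G18450 (PLAC8 family) and AT5G44585 (uncharacterized) complete the group together with S8H, which is described with the coumarin genes. All 12 also had a positive log2 fold change in Col 0, from 0.87 (S8H, not called) to 4.12, and in lbd16-1, from 1.22 to 5.32.

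Because WRKY transcription factors, many of which are induced in defence, bind a short sequence called the W-box, its core (TTGAC, or GTCAA on the other strand) was searched in the 250 bases before each gene start. It occurred in 8 of these 12 genes (66.7%), against 45.4% of the 21559 promoters of tested genes. The promoters of the 2 genes with the largest increases are shown 5′ to 3′ in the gene's direction, with each match in capitals (RefSeq, TAIR10.1). AT3G03670 has 1 match, starting 118 bases before the gene start, and AT2G29220 has 2, at 116 and 49 bases. A match is a run of letters and not evidence of binding.
AT3G03670 promoter, chr3:903412-903661, minus strand: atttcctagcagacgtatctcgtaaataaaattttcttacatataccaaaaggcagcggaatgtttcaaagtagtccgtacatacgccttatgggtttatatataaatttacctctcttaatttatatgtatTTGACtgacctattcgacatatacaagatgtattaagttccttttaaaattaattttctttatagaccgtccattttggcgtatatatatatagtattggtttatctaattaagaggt
AT2G29220 promoter, chr2:12564692-12564941, minus strand: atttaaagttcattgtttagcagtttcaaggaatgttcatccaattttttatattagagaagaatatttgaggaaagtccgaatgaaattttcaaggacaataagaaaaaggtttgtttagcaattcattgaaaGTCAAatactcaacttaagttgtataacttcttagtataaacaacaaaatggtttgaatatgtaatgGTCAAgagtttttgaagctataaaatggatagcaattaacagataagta

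Many defence regulators were higher with L359. Of the 16 salicylic acid genes tested, 11 were higher with L359 and none was lower, and of 21 defence WRKY genes 10 were higher and none lower. The median log2 fold changes were 0.44 and 0.55, beside 0.00 over all tested genes. WRKY54, which acts with WRKY70 downstream of salicylic acid, had 10.2, 11.6 and 14.4 CPM with L359, against 3.53, 4.90 and 6.92 CPM in NB, with no overlap (log2 fold change 1.25 ± 0.18 SE, adjusted p = 6.5e-09). WRKY70 stood at 26.6, 30.5 and 33.8 CPM with L359, against 12.4, 13.6 and 21.9 CPM in NB (1.02 ± 0.19 SE, adjusted p = 9.3e-06). WRKY22 and WRKY29, which act behind pattern receptors, rose by 1.06 ± 0.17 and 0.87 ± 0.14 log2 units (SE). The W-box core is present in 16 of the 21 WRKY promoters (76.2%) and in 6 of the 16 salicylic acid promoters (37.5%), beside 45.4% of all promoters of tested genes.

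Within the salicylic acid list, NIMIN-2, a small protein that binds the receptor NPR1, had 6.47, 6.80 and 9.00 CPM with L359, against 3.24, 3.48 and 4.93 CPM in NB (log2 fold change 0.94 ± 0.16 SE, adjusted p = 2.0e-06). SAG101 and PAD4, lipase-like partners of EDS1 in immune signalling, rose by 0.57 ± 0.10 and 0.34 ± 0.08, and DMR6, which breaks salicylic acid down, by 0.40 ± 0.08 (SE). None of these 4 overlapped between groups. Further members, named after their values were seen, were the regulators CBP60G (1.15) and SARD1 (1.16), PBS3 (1.55), which acts in salicylic acid synthesis, and FMO1 (1.60), which makes the systemic signal N-hydroxypipecolic acid, all on the log2 scale and all called. Among the low-numbered libraries 4 salicylic acid genes and 6 WRKY genes were called higher, and among the high-numbered ones 11 and 10. In Col 0, 6 salicylic acid genes and 7 WRKY genes were higher with L359 and 1 WRKY gene was lower. The responses differed from Col 0 in 2 salicylic acid genes, NIMIN-2 (0.90 ± 0.23 SE, adjusted p = 0.011) and DMR6 (0.37 ± 0.11 SE, adjusted p = 0.037), and in 1 WRKY gene. In the low and high number ranges the NIMIN-2 difference was 0.31, not called, and 1.49. DMR6 was no longer called for the difference when any of 13 single libraries was left out.

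Other immune genes moved less uniformly. In the pattern-triggered immunity list, 5 of 19 members were higher and 1 lower (median 0.11), beside 7.68% and 5.57% of all tested genes (median 0.00). The 2 elicitor peptide precursors PROPEP3 and PROPEP2 rose by 0.99 ± 0.19 and 0.77 ± 0.20 log2 units (SE). In the camalexin and indole glucosinolate list, 4 of 19 were higher and 4 lower (median 0.17). PEN2, a myrosinase of indole glucosinolate defence, had 185, 199 and 221 CPM with L359, against 161, 165 and 182 CPM in NB (0.26 ± 0.07 SE), whereas CYP81F4, which modifies indole glucosinolates, fell by 0.33 on the log2 scale. Without nph4-1 L359 replicate 3 or nph4-1 NB replicate 1 the immunity list had 3 higher members, and without nph4-1 L359 replicate 5 the indole list had 2 lower members. Of 24 jasmonate genes, 1 was higher and 1 lower (median 0.02), near the shares over all tested genes. MYB15, a regulator of lignin synthesis in defence, stood out in the phenylpropanoid and lignin list with 3.87, 5.09 and 6.98 CPM, against 1.01, 1.46 and 2.23 CPM in NB (1.77 ± 0.30 SE, adjusted p = 8.8e-07), and 2 members of that list were lower. The counts of that list, 1 higher and 2 lower of 24, are also near the shares over all tested genes.

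**Figure D1:**
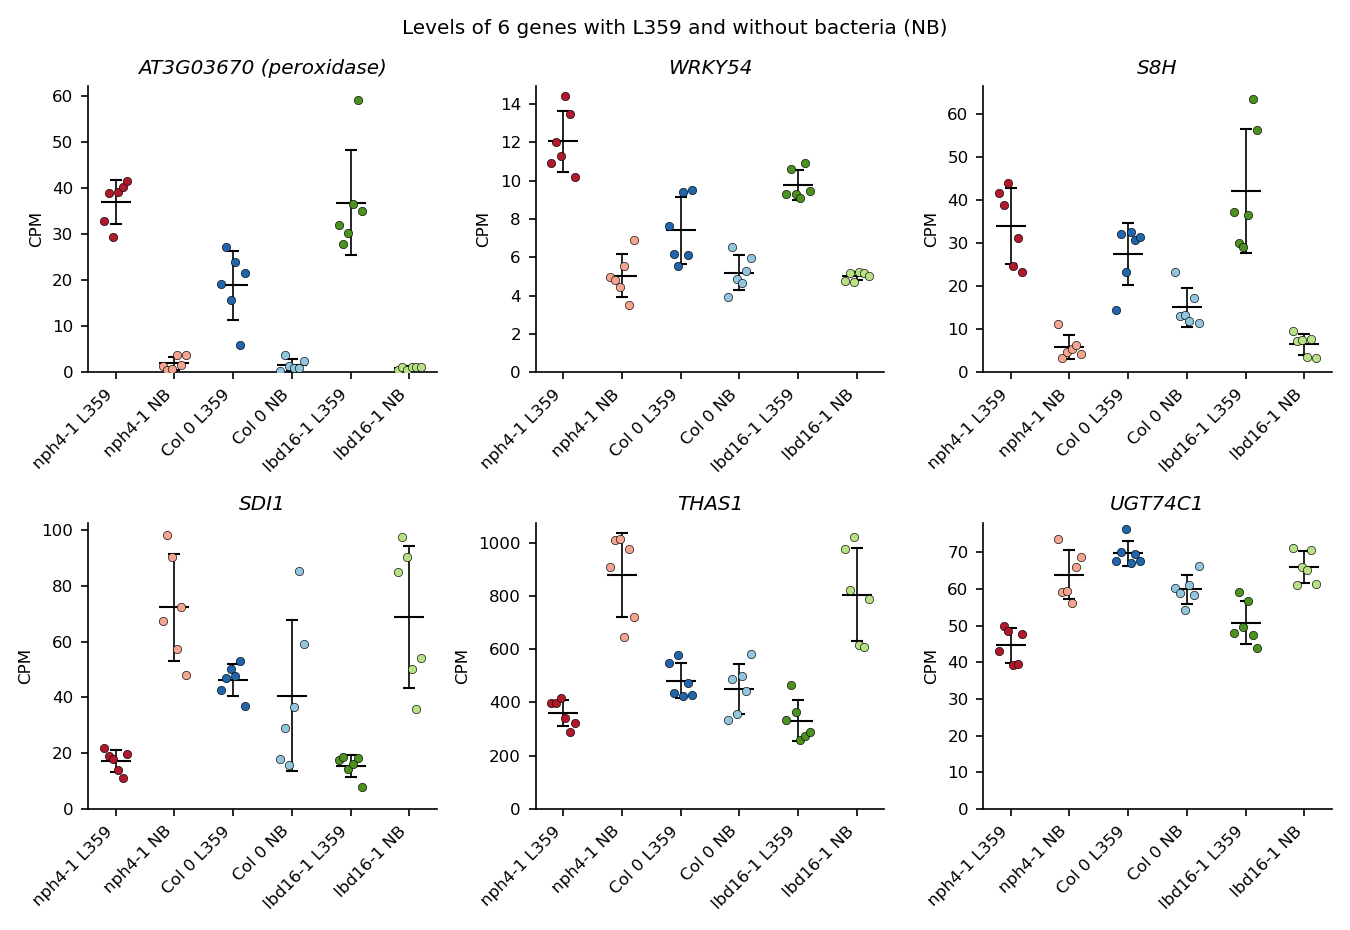
CPM of 6 genes by library (points, 6 per group) in nph4-1, Col 0 and lbd16-1 roots with L359 and without bacteria (NB), with the group mean (line) and SD (bar). AT3G03670 and WRKY54 lie higher with L359 in nph4-1 without overlap, and SDI1, THAS1 and UGT74C1 lie lower with L359 in nph4-1 but not in Col 0.

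Some ethylene genes were higher with L359, by small amounts. Of 20 signalling genes, 5 were higher and none lower (median 0.09), and of 11 synthesis genes 4 were higher and 1 lower (median 0.36). The shares over all tested genes were 7.68% higher and 5.57% lower, with a median of 0.00. EBF2, an F-box protein that limits the ethylene response and is itself ethylene-induced, had 105, 128 and 137 CPM with L359, against 87.7, 96.4 and 103 CPM in NB, with no overlap (log2 fold change 0.39 ± 0.09 SE, adjusted p = 8.0e-04). The receptor gene ETR2 had 4.85, 7.47 and 8.83 CPM, against 3.55, 4.29 and 5.10 CPM (0.74 ± 0.17 SE, adjusted p = 6.1e-04), with a small overlap. The ACC oxidases, which carry out the last step of ethylene synthesis, were split: ACO1 rose by 0.43 ± 0.10 and ACO5 by 0.37 ± 0.10, and ACO4 fell by 0.28 on the log2 scale. EDF1 and EDF2 (0.52 and 0.33, ethylene-induced transcription factors) were each lost without 1 library, nph4-1 L359 replicate 1 for EDF1 (range over libraries left out 0.44 to 0.56) and nph4-1 L359 replicate 3 for EDF2 (0.28 to 0.36). Without nph4-1 L359 replicate 3, 3 signalling genes were called higher. Within the high number range none of the synthesis genes was called higher, although their median was 0.33. In Col 0, 6 signalling genes were higher, and no ethylene gene's response was called different between nph4-1 and Col 0 in all libraries. In the low number range the difference was called for 2 synthesis genes (more positive in nph4-1) and 1 signalling gene (more negative), and in the high range for none.

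Auxin genes changed little in number. No member of the 5 ARF genes tested was called. Among 27 Aux/IAA genes, IAA3 (0.49 ± 0.11 SE) and IAA9 (0.14 ± 0.04 SE) were higher and IAA7 (fell by 0.41) lower, and in auxin transport 2 of 14 were higher and 1 lower. Over all tested genes 7.68% were higher and 5.57% lower, so these small counts are not read as a change of the lists. In the low number range no Aux/IAA or auxin transport gene was called, and in the high range 4 and 2 were higher and 1 of each list lower. One of the higher transport genes, the importer gene LAX3 (0.17 to 0.23 over libraries left out), lost its call without any of 9 single libraries. GH3.2, which conjugates auxin to amino acids and is auxin-induced, had 47.8, 58.4 and 72.8 CPM with L359, against 20.2, 24.3 and 30.2 CPM in NB, with no overlap (1.28 ± 0.20 SE, adjusted p = 1.4e-07). Its log2 fold change in Col 0 was also 1.28. GH3.17, which conjugates auxin to glutamate, had 87.8, 111 and 116 CPM, against 150.4, 151 and 169 CPM (fell by 0.53, adjusted p = 1.1e-06), while in Col 0 it had a log2 fold change of 0.00. The difference of the GH3.17 responses was called (-0.53 ± 0.13 SE, adjusted p = 0.0054), and was -0.72 in the low and -0.34, not called, in the high number range. These 2 were the called members of 7 GH3 genes. The auxin exporter gene ABCB4 fell by 0.43 on the log2 scale (386, 429 and 486 CPM, against 504, 582 and 681 CPM in NB).

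Of 21 lateral root regulators, 2 were higher and 1 lower with L359, beside 7.68% and 5.57% of all tested genes. The counts of this list are thus near the background. LBD16, the target of ARF7 that breaks the symmetry of lateral root founder cells, had 6.00, 6.71 and 8.03 CPM with L359, against 3.62, 5.61 and 6.09 CPM in NB, with a slight overlap (0.37 ± 0.11 SE, adjusted p = 0.013). Its log2 fold change was 0.40 in Col 0. GATA23, which marks founder cells, was low in both, at 0.597, 0.720 and 1.1 CPM with L359, against 0.279, 0.397 and 0.567 CPM in NB (0.96 ± 0.31 SE, adjusted p = 0.020). Both calls depended on single libraries: LBD16 (0.29 to 0.42 over libraries left out) was lost without nph4-1 L359 replicate 6 or nph4-1 NB replicate 4, and GATA23 (0.84 to 1.07) without nph4-1 L359 replicate 5 or nph4-1 NB replicates 1 or 6. XTR6, the lower member (fell by 0.41), was lost without any of 5 single libraries. None of 28 cell cycle genes was called (median 0.01) in edgeR. Of 20 cytokinin genes, 1 was higher and 1 lower, again near the shares over all tested genes. The lower one was the cytokinin oxidase gene CKX5 (fell by 0.41). The higher one, IPT5, a cytokinin synthesis gene, lost its call without any of 6 single libraries (0.33 to 0.44). As these are whole root systems, a change in the number of cells of a type and a change of RNA per cell cannot be told apart.

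Several genes of iron acquisition and of the coumarins that mobilise iron were higher with L359. Of 8 coumarin genes 4 were higher and none lower (median 0.47), and of 25 iron genes 6 were higher and 2 lower (median 0.37). F6'H1, the entry enzyme of scopoletin synthesis, had 479.6, 529 and 616 CPM with L359, against 253, 278 and 348 CPM in NB (0.91 ± 0.15 SE, adjusted p = 2.6e-07). S8H, which turns scopoletin into the iron-reducing coumarin fraxetin (chromosome 3, 4104463 to 4106341), had 23.3, 35.0 and 43.9 CPM, against 3.42, 5.03 and 11.1 CPM. Neither overlapped, and S8H was 5.75-fold higher (2.52 ± 0.43 SE, adjusted p = 1.2e-06). The difference of the S8H responses from Col 0 (1.66 ± 0.58 SE) missed the threshold (adjusted p = 0.097). In NB the S8H level was lower in nph4-1 than in Col 0 (11.5 to 23.3 CPM), without overlap. This difference thus also reflects the level without bacteria.

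FIT, the transcription factor that governs iron uptake, had 95.4, 110.4 and 119.7 CPM with L359, against 64.3, 73.6 and 91.9 CPM in NB, with no overlap (0.55 ± 0.13 SE, adjusted p = 5.2e-04). Its partner BHLH38 had 11.6, 14.4 and 18.3 CPM, against 3.91, 6.11 and 8.51 CPM (1.17 ± 0.30 SE, adjusted p = 0.0026), and in Col 0 3.87, 8.30 and 15.3 CPM with L359, against 10.9, 16.9 and 51.2 CPM in NB. In Col 0 it was thus lower with L359 (fell by 1.29), and the responses differed by 2.47 ± 0.42 (SE, adjusted p = 3.5e-05). In NB the BHLH38 level was lower in nph4-1 than in Col 0, without overlap. Its response difference thus also reflects the level without bacteria. A second partner, BHLH100, was nearly absent from nph4-1 NB (0, 0.222 and 1.12 CPM) and reached 1.74, 2.71 and 4.00 CPM with L359. NRAMP1, a manganese and iron importer, rose by 0.42 ± 0.08 (SE). The nicotianamine synthase NAS2 went the other way, with 15.7, 24.6 and 35.0 CPM with L359, against 49.4, 62.4 and 68.9 CPM in NB (fell by 1.24), and it also fell by 1.35 in Col 0. Altogether 4 iron genes had a more positive response in nph4-1 than in Col 0 and none a more negative one, also without Col 0 NB replicates 4 and 5, against 1.27% and 1.52% of all tested genes. Separate fits to the low and high number ranges called 3 and 5 iron genes more positive.

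**Figure D2:**
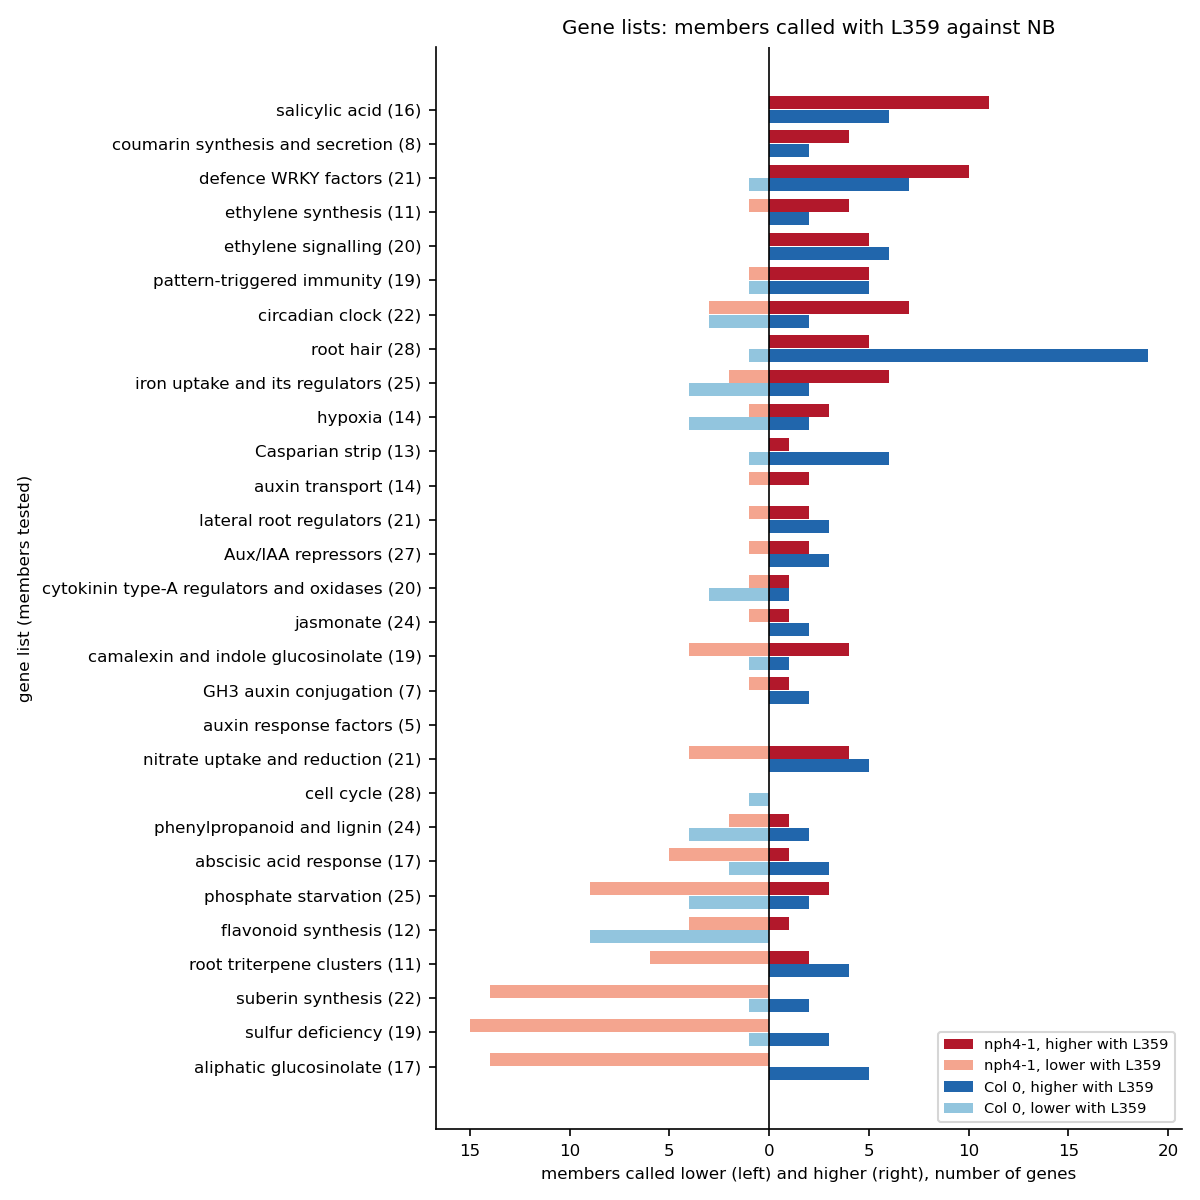
Number of members of each gene list called higher (right of 0) or lower (left) with L359 against NB, in nph4-1 and in Col 0, with the number of members tested in parentheses. Salicylic acid genes (11 higher of 16) stand at the top and aliphatic glucosinolate genes (14 lower of 17) at the bottom in nph4-1, where root hair genes show 5 higher, against 19 higher in Col 0.

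Genes of sulfur deficiency fell. Of 19 members of that list, 15 were lower with L359 and none was higher, with a median log2 fold change of -0.63. SDI1, a protein induced when sulfate is short that holds back glucosinolate synthesis (chromosome 5, 19805437 to 19807853), had 11.1, 18.3 and 22.0 CPM in nph4-1 L359, against 48.1, 70.0 and 98.2 CPM in nph4-1 NB. The groups did not overlap, and the level was 4.17-fold lower with L359 (log2 fold change -2.06 ± 0.28 SE, adjusted p = 2.4e-09). In Col 0, SDI1 had 36.9, 47.3 and 53.1 CPM with L359, against 15.6, 32.7 and 85.5 CPM in NB, which overlapped widely. In lbd16-1 it had 7.76, 16.8 and 18.7 CPM with L359, against 35.7, 69.5 and 97.4 CPM in NB. The response differed from that of Col 0 by -2.25 ± 0.39 (SE, adjusted p = 4.7e-05), and by -1.59, not called, in the low and -3.32 in the high number range.

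The fall extended over transport and assimilation of sulfate. SULTR2;1, a sulfate transporter of the vasculature, had 38.4, 46.5 and 48.7 CPM with L359, against 74.6, 77.3 and 94.9 CPM in NB (-0.83 ± 0.15 SE, adjusted p = 2.8e-06). SULTR4;2, which releases sulfate from the vacuole, had 22.3, 25.2 and 31.6 CPM, against 39.0, 40.6 and 43.9 CPM (-0.68 ± 0.11 SE, adjusted p = 1.3e-07). SHM7, a serine hydroxymethyltransferase, had 81.1, 105 and 123 CPM, against 149, 162 and 172 CPM (-0.63 ± 0.09 SE, adjusted p = 1.8e-08). None of these groups overlapped. Among further members, named after their values were seen, LSU1 and LSU3, small proteins induced by low sulfur, had log2 fold changes of -1.04 and -1.11, and the reductase APR1, which commits sulfate to assimilation, -0.48. The low and high number ranges gave 14 and 12 lower members. In Col 0, 3 members were higher and 1 lower (median -0.04), and 9 responses were called more negative in nph4-1 than in Col 0, also without Col 0 NB replicates 4 and 5. Separate fits to the low and high number ranges called 2 and 10 more negative responses, and the medians of the 19 differences were -0.49 and -0.73.

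A known regulatory sequence of sulfur-responsive promoters has the core GAGAC, or GTCTC when read on the other strand, which was searched on both strands of the same 250 bases. It was present in 6 of the 19 promoters of the list (31.6%), beside 25.5% of all promoters of tested genes, a share near the background. It cannot overlap the W-box core. SDI1 has 1 match, starting 23 bases before the gene start, shown in capitals (RefSeq, TAIR10.1, 5′ to 3′ in the gene's direction).
SDI1 promoter, chr5:19807854-19808103, minus strand: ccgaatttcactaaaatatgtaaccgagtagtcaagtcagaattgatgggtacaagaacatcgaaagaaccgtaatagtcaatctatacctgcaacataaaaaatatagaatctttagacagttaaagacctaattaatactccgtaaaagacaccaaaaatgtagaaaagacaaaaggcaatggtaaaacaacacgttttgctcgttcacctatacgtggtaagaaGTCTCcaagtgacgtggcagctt

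Aliphatic glucosinolates are sulfur-rich defence compounds made from methionine, and their genes fell as well. Of 17 members, 14 were lower in nph4-1 L359 than in nph4-1 NB and none was higher, and all 17 had negative log2 fold changes (median -0.40). UGT74C1, a glucosyltransferase of the core pathway, had 39.2, 45.5 and 49.9 CPM with L359, against 56.1, 62.8 and 73.7 CPM in NB, with no overlap (-0.52 ± 0.08 SE, adjusted p = 9.9e-08). MAM3, which elongates the methionine side chain, had 181, 189.8 and 229 CPM, against 236, 270.3 and 346 CPM (-0.48 ± 0.09 SE). IMD1 and IIL1, further enzymes of chain elongation, fell by 0.47 and 0.38 on the log2 scale, and MYB28, the main activator of the pathway, by 0.39 (named after its value was seen). In Col 0, 5 members were higher and none lower (median 0.13). UGT74C1 there had 67.2, 68.6 and 76.3 CPM with L359, against 54.3, 59.6 and 66.3 CPM in NB. The responses were called different from those of Col 0 in 13 of 17 genes, all more negative in nph4-1, among them UGT74C1 (-0.73 ± 0.11 SE, adjusted p = 2.6e-06) and MAM3 (-0.80 ± 0.13 SE, adjusted p = 1.4e-05). Without Col 0 NB replicates 4 and 5 the number was 12, and in the low and high number ranges 3 and 11. In the low number range 7 members were lower in nph4-1 and in the high range 10.

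**Figure D3:**
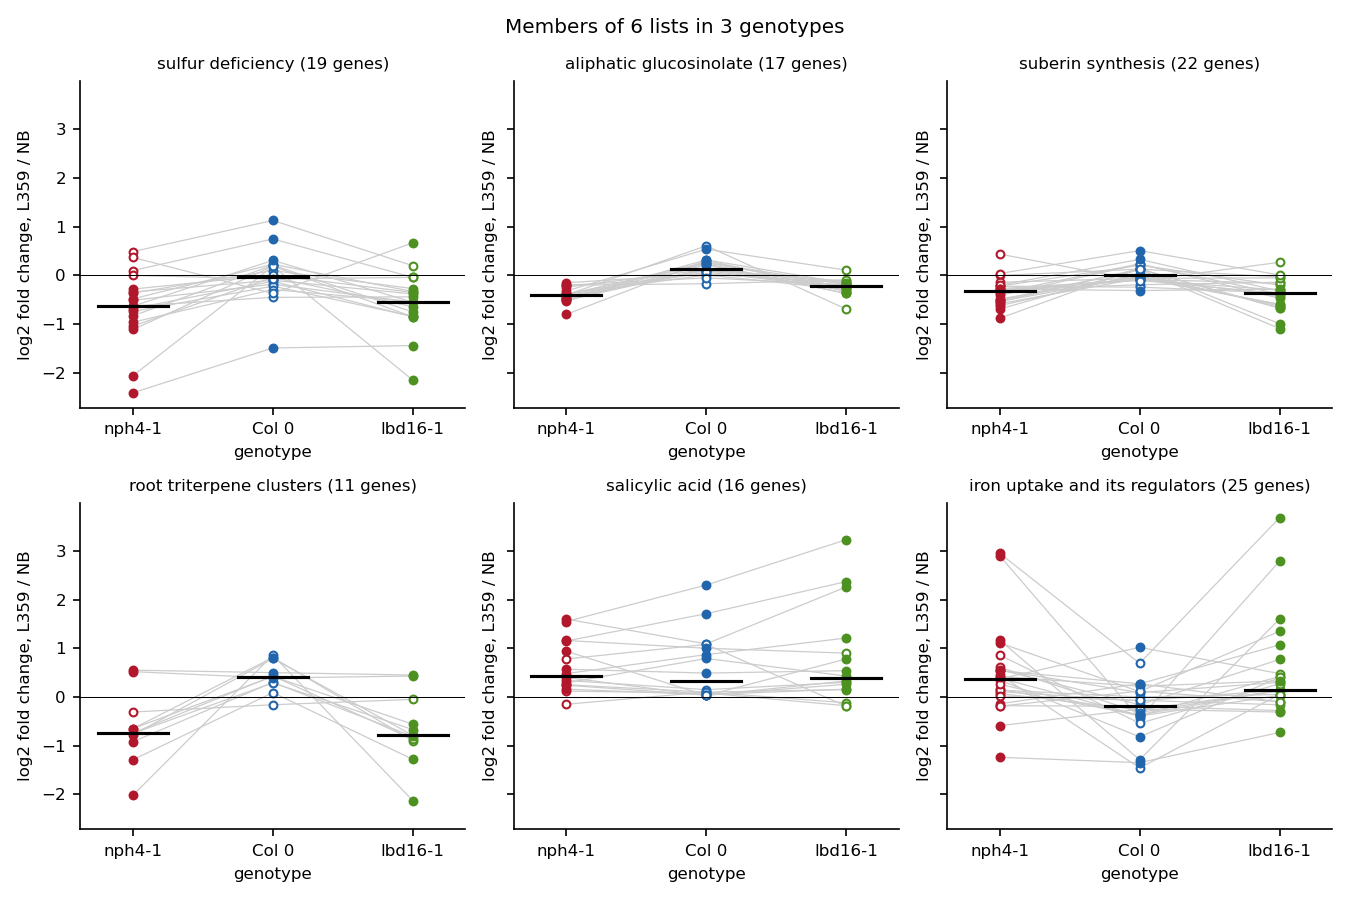
Log2 fold change with L359 against NB of each tested member of 6 gene lists (points, joined by a grey line across nph4-1, Col 0 and lbd16-1); filled points passed the test and the black bar is the list median. The sulfur deficiency, aliphatic glucosinolate, suberin and triterpene members lie lower in nph4-1 (medians -0.63, -0.40, -0.31 and -0.74) than in Col 0 (medians -0.04, 0.13, 0.00 and 0.42).

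Suberin is the lipid polyester that seals the endodermis. Of 22 suberin synthesis genes, 14 were lower with L359 in nph4-1 and none was higher (median -0.31). The fatty acyl reductase FAR5 had 79.2, 88.2 and 91.1 CPM with L359, against 112, 133 and 141 CPM in NB (-0.58 ± 0.08 SE, adjusted p = 3.2e-09). ABCG6, a transporter needed for the suberin barrier, had 101, 114 and 142 CPM, against 175, 215 and 253 CPM (-0.88 ± 0.14 SE, adjusted p = 5.6e-07). CYP86B1, a very-long-chain fatty acid hydroxylase, and KCS2, which elongates fatty acids, fell by 0.62 and 0.54. All 4 were without overlap. The number of lower members differed between the library ranges, with 2 among low-numbered and 14 among high-numbered libraries (medians -0.26 and -0.44). In Col 0, 2 members were higher and 1 lower (median 0.00), and 9 responses were called more negative in nph4-1, and 9 as well without Col 0 NB replicates 4 and 5. Separate fits to the low and high number ranges called 0 and 12 more negative responses. Of 13 Casparian strip genes, which build the other endodermal barrier, 1 was higher (CASP4, 0.50 ± 0.13 SE), whereas 6 were higher in Col 0. The shares of all tested genes called higher were 7.68% in nph4-1 and 8.45% in Col 0. The difference itself was called in 1 of the 13, more positive in nph4-1, and in 0 more negative. It was called in 0 without Col 0 NB replicates 4 and 5, and in the high number range in 1, more negative.

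The triterpene genes of the root lie in metabolic gene clusters. Of 11 tested, 6 were lower with L359 and 2 higher (median -0.74), and 6 lower and 2 higher members were counted within each number range. Thalianol synthase, THAS1 (chromosome 5, 19456837 to 19461706), had 289, 368 and 417 CPM in nph4-1 L359, against 644, 942 and 1013 CPM in nph4-1 NB, a 2.44-fold lower level (-1.29 ± 0.18 SE, adjusted p = 8.1e-09). Marneral synthase, MRN1, had 6.82, 12.5 and 17.1 CPM, against 29.6, 45.1 and 69.5 CPM (-2.02 ± 0.42 SE, adjusted p = 1.1e-04), and its cluster neighbour CYP71A16 49.7, 51.4 and 64.3 CPM, against 79.7, 90.7 and 113 CPM (-0.75 ± 0.14 SE). None of the 3 overlapped. PEN1, the synthase of another triterpene, was higher with L359 (25.7, 30.7 and 33.2 CPM, against 19.6, 20.3 and 22.7 CPM in NB), as was CYP705A1 (0.55). In Col 0, 4 members were higher and none lower (median 0.42), whereas in lbd16-1, as in nph4-1, 2 were higher and 6 lower (median -0.79). The 6 members lower in nph4-1 were also those with a response called more negative than in Col 0: THAS1, THAH, THAD, MRN1, CYP705A12 and CYP71A16. In Col 0, THAS1 had 424 to 578 CPM with L359, against 335 to 580.0 CPM in NB. In NB its level was thus higher in nph4-1 than in Col 0, without overlap, so its response difference also reflects the level without bacteria. Without Col 0 NB replicates 4 and 5 there were again 6 such calls, and in the low and high number ranges 1 and 6.

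Other genes of the 12 with the largest decreases, all without overlap by the rule that chose them, came from several functions. AT1G55230 (DUF716 family) had 1.03, 1.95 and 2.18 CPM with L359, against 4.98, 8.54 and 11.0 CPM in NB (-2.21 ± 0.27 SE, adjusted p = 1.8e-11). The cysteine protease gene CP1 had 6.97, 15.6 and 21.8 CPM, against 34.1, 42.6 and 60.7 CPM (-1.60 ± 0.20 SE, adjusted p = 2.7e-11). LAC12, a laccase, had 5.29, 5.85 and 9.89 CPM, against 14.4, 17.9 and 19.3 CPM (-1.40 ± 0.17 SE, adjusted p = 2.9e-11). In Col 0, AT1G55230 and CP1 also fell (by 1.43 and 1.67), and LAC12 had a log2 fold change of 0.07, so that its difference between genotypes was called (-1.47 ± 0.24 SE, adjusted p = 1.4e-05), though not in the low number range (-0.94). The aldo-keto reductase gene ChlAKR, the glucosyltransferase UGT84A3 and the cytochrome P450 CYP89A6 fell by 1.58, 1.41 and 1.36, and in Col 0 by 1.75, 1.41 and 1.92. The chitinase gene AT2G43590 had 494, 598 and 684 CPM, against 1001, 1396 and 1656 CPM (-1.25 ± 0.22 SE), and its log2 fold change in Col 0 was 0.02. AT1G34060 (a pyridoxal phosphate enzyme) and AT4G31330 (of unknown function) fell by 1.41 and 1.36.

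Abscisic acid genes were mixed, with 5 of 17 lower and 1 higher (median -0.07), beside 5.57% and 7.68% of all tested genes. NCED3, which catalyses the first committed step of abscisic acid synthesis, had 4.81, 5.74 and 6.87 CPM with L359, against 8.52, 10.3 and 14.7 CPM in NB, with no overlap (-0.92 ± 0.21 SE, adjusted p = 6.4e-04). The phosphatase gene HAI1, an abscisic acid marker, fell by 1.01, and CYP707A3, which degrades the hormone, had 23.2, 28.2 and 37.5 CPM, against 13.3, 14.6 and 18.9 CPM (0.93 ± 0.16 SE). In Col 0, NCED3 went the other way, with 8.67, 9.84 and 17.7 CPM with L359, against 5.39, 6.28 and 10.0 CPM in NB, and the responses differed by -1.67 ± 0.30 (SE, adjusted p = 1.0e-04), and by -1.48, not called, in the low and -1.84 in the high number range. The list had 1 higher and 2 lower members in the low range and 1 higher and 5 lower in the high range.

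Nutrient lists other than iron and sulfur had calls in both directions. Of 21 nitrate genes, 4 were higher and 4 lower: NRT3.1, the partner of the high-affinity nitrate transporters, had 151, 164 and 196 CPM with L359, against 88.0, 101 and 116 CPM in NB (0.72 ± 0.12 SE), and NRT1.5, which loads nitrate into the xylem, 675, 767 and 864 CPM, against 387, 549 and 657 CPM (0.53 ± 0.09 SE). UPM1, needed for the sirohaem of nitrite and sulfite reductase, and the glutamine synthetase GLN1.1 fell by 0.65 and 0.38. Of 25 phosphate starvation genes, 3 were higher and 9 lower (median -0.09). The shares over all tested genes were 7.68% higher and 5.57% lower. The transporter PHT1;1 had 1122, 1188 and 1344 CPM with L359, against 821, 873 and 951 CPM in NB (0.45 ± 0.10 SE), and the acid phosphatase PAP17 25.9, 27.4 and 36.0 CPM, against 42.1, 45.0 and 50.2 CPM (fell by 0.66). In the low number range 2 nitrate genes were higher and 1 lower, and 0 phosphate genes were higher and 3 lower. In the high range these counts were 3 and 4 for nitrate, and 5 and 4 for phosphate.

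Of 28 root hair genes, 5 were higher and none lower with L359 in nph4-1 (median 0.23), against 19 higher and 1 lower in Col 0 (median 0.61). The difference itself was called in 4 of the 28, 1 more positive and 3 more negative in nph4-1 (1 and 2 without Col 0 NB replicates 4 and 5). The peroxidases PRX44 and PRX73, active in root hair walls, rose in nph4-1 by 1.05 ± 0.16 and 0.87 ± 0.19 (SE). Without nph4-1 L359 replicate 4, 2 root hair genes were called higher, and without nph4-1 NB replicate 5, 3. The number was 11 when only the groups compared were fitted, 4 in the low number range and 2 in the high range. Flavonoid synthesis had 1 higher and 4 lower of 12 (median -0.38), and 9 lower in Col 0. Chalcone synthase, TT4, the first enzyme of that pathway, had 646, 749 and 865 CPM with L359, against 926, 1012 and 1136 CPM in NB (fell by 0.46). Its activator MYB12 rose by 0.39 ± 0.11 in nph4-1 and fell by 0.46 in Col 0 (difference 0.84 ± 0.16 SE, adjusted p = 1.5e-04). No other flavonoid gene was called for the difference. Clock genes had 7 higher and 3 lower of 22, with the evening-phased PRR5 higher (0.75 ± 0.15 SE) and the morning gene LHY lower (fell by 0.75). Each number range called 4 clock genes higher and 3 lower. Of 14 hypoxia genes 3 were higher and 1 lower, of the 18 shoot markers none was called in either direction, and of the 15 root markers 1 was higher and 1 lower. All these nph4-1 counts stand beside 7.68% higher and 5.57% lower over all tested genes.

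The interaction with Col 0 was tested for all genes. Of its 603 genes, 353 were also called in nph4-1 and 267 in Col 0, of which 55 in both, and 486 had log2 fold changes of opposite sign in the 2 genotypes. Genes with a more positive response in nph4-1 had median log2 fold changes of 0.25 in nph4-1 and -0.25 in Col 0, and those with a more negative one -0.39 in nph4-1 and 0.23 in Col 0. Over all tested genes, 61.3% had the same sign in both genotypes. Opposite signs and medians are favoured by the choice of the 603 genes by their difference from Col 0. In lbd16-1, which was not used to choose them, the medians of the same genes were 0.19 and -0.34. The scatter of the responses shows this as points that leave the diagonal for Col 0 and lie along it for lbd16-1.

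**Figure D4:**
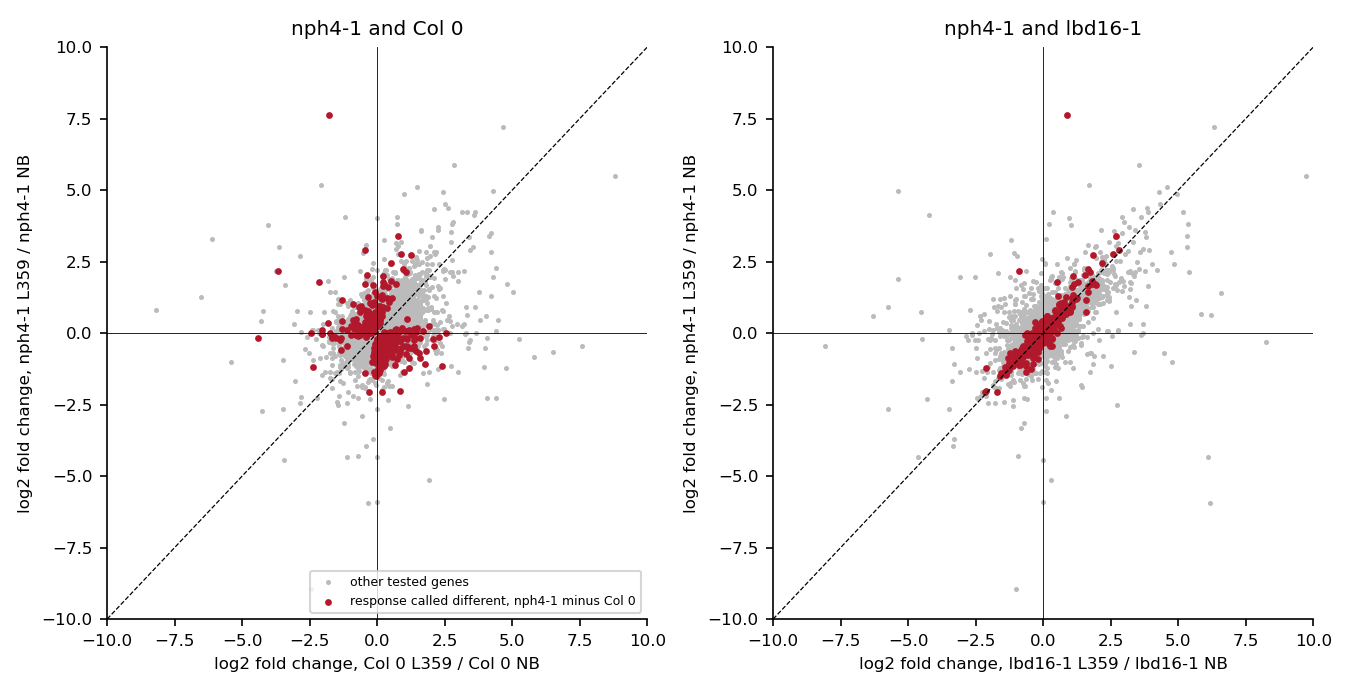
Log2 fold change with L359 against NB of all 21635 tested genes in nph4-1 (vertical axis) against Col 0 (left) and lbd16-1 (right); red points are the 603 genes whose response differed between nph4-1 and Col 0, and the dashed line marks equal responses. The red points fall mostly in the quadrants of opposite sign for Col 0 (486 of 603), and mostly near the line of equal responses for lbd16-1. The choice of the red points by their difference from Col 0 itself favours opposite signs there.

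Among the genes with the largest positive differences, NAC3, a transcription factor of stress responses, had 10.2, 13.7 and 19.3 CPM in nph4-1 L359, against 2.51, 3.47 and 7.06 CPM in nph4-1 NB. In Col 0 it had 1.85, 3.31 and 4.76 CPM with L359, against 3.16, 3.82 and 7.81 CPM in NB (difference 2.18 ± 0.32 SE, adjusted p = 6.5e-07), and in the low and high number ranges the difference was 1.38, not called, and 3.00. GRP3S, a glycine-rich protein gene, had 11.3, 28.9 and 48.6 CPM, against 11.2, 13.6 and 18.7 CPM, in nph4-1 and 13.5, 20.8 and 23.2 CPM, against 24.3, 30.4 and 53.6 CPM, in Col 0. NAC3 was thus higher with L359 in nph4-1 without overlap, and GRP3S lower with L359 in Col 0 without overlap. BXL3, a cell wall xylosidase, GLIP1, a secreted lipase, and AT5G43570, a protease inhibitor, differed by 1.58, 1.60 and 1.55. Without Col 0 NB replicates 4 and 5 or without replicate 4 alone BXL3 was not called (0.99 without replicate 4), and GLIP1 was lost without any of 11 single libraries. The differences of AT2G01020 (4.25) and AT1G15405 (2.46), a noncoding RNA, rested on Col 0 NB replicate 4, without which they were 1.1 and 0.44 and not called.

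The other genes with large negative differences, apart from MRN1 and SDI1, were genes that rose in Col 0. AT5G04120, of the phosphoglycerate mutase family, had 9.83, 26.2 and 33.3 CPM in nph4-1 L359, against 22.6, 35.2 and 43.9 CPM in nph4-1 NB, which overlap. In Col 0 it had 32.7, 57.3 and 67.5 CPM with L359, against 5.28, 10.0 and 22.7 CPM in NB, with no overlap (difference -2.58 ± 0.60 SE, adjusted p = 0.0042). HAK5, the high-affinity potassium transporter, had 7.19, 20.3 and 56.1 CPM with L359, against 25.4, 42.0 and 63.6 CPM in nph4-1, and 29.8, 45.7 and 56.0 CPM, against 15.5, 19.5 and 24.8 CPM in Col 0 (difference -2.04 ± 0.49 SE, adjusted p = 0.0051). Neither gene was called in nph4-1 alone. The cytochrome P450 genes CYP76G1, CYP712A2 and CYP93D1 and the dioxygenase gene AT1G15540 differed by -2.44, -2.04, -1.90 and -2.23. CYP712A2 and CYP93D1 are neighbouring cytochrome P450 genes, and whether reads were divided between them was not tested. In every one of these genes Col 0 NB had the lowest median of the 4 groups. Their response differences thus also reflect the level without bacteria.

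In the low number range most of these differences kept their sign but were not called: AT5G04120 was -1.91, CYP76G1 -1.64, AT1G15540 -0.95, CYP712A2 -0.92, HAK5 -1.34 and CYP93D1 -1.14, and in the high range -3.47, -3.47, -3.77, -3.78, -2.99 and -2.84. Col 0 NB replicates 4 and 5 are in the low range.

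The nph4-1 response resembled that of lbd16-1 in sign. Of the 2867 genes called in nph4-1, 98.8% had the same sign in lbd16-1 and 82.4% in Col 0, beside 74.0% and 61.3% of all tested genes. The 3 comparisons share no library. By library number the nph4-1 and lbd16-1 groups of each treatment lie side by side, with the Col 0 groups apart from both. Library order can therefore not be told apart from genotype here, and its part was not tested. In lbd16-1, 2105 of the 2867 genes were called the same way and 1 the opposite way, and in Col 0 1042 and 43. Of genes lower in nph4-1, 98.9% had the same sign in lbd16-1 and 74.4% in Col 0. The difference of the L359 response between nph4-1 and lbd16-1 was called for no gene (0%) in edgeR, with 575 genes at an unadjusted p under 0.05 and 6 called by DESeq2. In lbd16-1, 13 of 19 sulfur deficiency and 15 of 22 suberin genes were lower, beside 7.22% of all tested genes. Of the 17 aliphatic glucosinolate genes 6 were called lower in lbd16-1 and 14 in nph4-1. In lbd16-1, 16 of the 17 had negative log2 fold changes (median -0.22), and none was called for the difference between the mutants.

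Across all 3 genotypes, 893 genes were called in the same direction with L359. The 603 higher genes were 36.3% of those higher in nph4-1, 33.0% in Col 0 and 30.8% in lbd16-1, and the 290 lower genes 24.1%, 20.2% and 18.6%. A further 1212 genes (642 higher, 570 lower) were called the same way in nph4-1 and lbd16-1 and not in Col 0, 149 in nph4-1 and Col 0 and not in lbd16-1, and 613 in nph4-1 alone. These counts rest on a threshold passed in some comparisons and not in others, which is no test of a difference. The difference from lbd16-1 was called for 0 genes. That from Col 0 was called for 298 genes that were called in nph4-1 and not in Col 0. Apart from genes described above, the shared increases with the largest smallest fold change were ARI12, an Ariadne-type ubiquitin ligase gene (7.76, 9.80 and 11.0 CPM in nph4-1 L359, against 1.47, 1.65 and 3.39 CPM in NB), and AT5G37450, a leucine-rich repeat kinase gene (17.1, 21.2 and 32.3 CPM, against 3.18, 4.48 and 8.88 CPM). The log2 level of AT5G37450 rose by 2.2 ± 0.26 in nph4-1, 2.42 ± 0.27 in Col 0 and 2.42 ± 0.26 in lbd16-1 (SE). Among shared decreases, AT5G16980, a zinc-binding dehydrogenase gene, fell by 1.19 in nph4-1 and by 2.38 in Col 0, a difference that was itself called (1.2 ± 0.32 SE, adjusted p = 0.015) but not without nph4-1 L359 replicate 1 or 2 (1.04 to 1.33 over libraries left out).

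Within nph4-1, L359 was compared directly with L344 and RCL115, 2 other strains of the study, with no shared control. Against L344, 268 genes were called (1.24%), 183 higher and 85 lower with L359. GH3.3 and GH3.2, both auxin-induced conjugation genes, were lower with L359: GH3.3 had 9.00, 16.9 and 18.4 CPM with L359, against 11.2, 70.5 and 159 CPM with L344 (-2.36 ± 0.41 SE, adjusted p = 4.1e-05), and GH3.2 had 47.8, 58.4 and 72.8 CPM, against 64.1, 170.0 and 206 CPM (-1.42 ± 0.19 SE, adjusted p = 1.1e-07). In both genes 1 L344 library lay among the L359 values, and GH3.3 with L359 was at the level of NB (9.29, 15.0 and 18.1 CPM). The peroxidase gene AT1G14550 was higher with L359, at 9.49, 14.8 and 16.7 CPM, against 2.93, 4.63 and 6.45 CPM with L344, with no overlap (1.53 ± 0.26 SE, adjusted p = 3.7e-05). HAK5 was higher with L359 (1.8 ± 0.39 SE), and so were the chitinase gene AT2G43590 and the lectin gene AT3G16530 (1.09 ± 0.22 and 1.11 ± 0.15 SE), both of which were lower with L359 than in NB. The defensin-like genes AT5G33355 and AT3G59930 were lower with L359 than with L344 (-3.23 and -1.50). These 2 genes and AT1G14550 have near-identical relatives, between which reads may have been divided. None of 19 sulfur deficiency genes was lower with L359 than with L344, and 1 was higher.

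**Figure D5:**
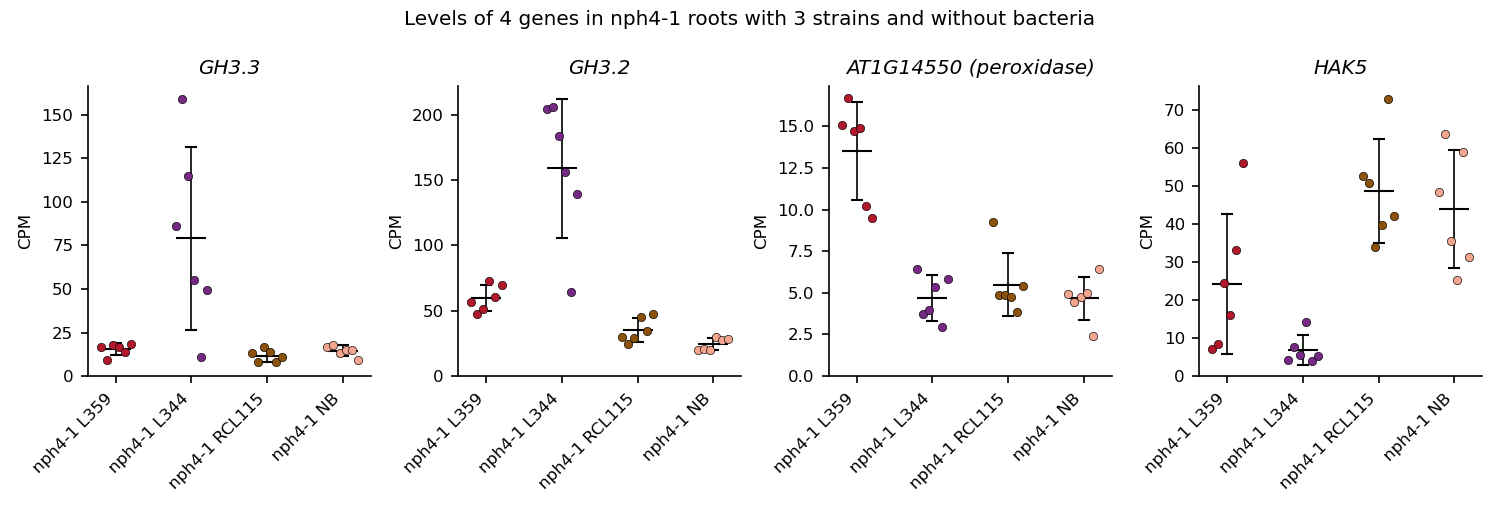
CPM by library (points, 6 per group) of 4 genes in nph4-1 roots with L359, L344 or RCL115 and without bacteria (NB), with the group mean (line) and SD (bar). GH3.3 and GH3.2 are highest with L344, AT1G14550 is highest with L359, and HAK5 with L359 spreads from 7.19 to 56.1 CPM.

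Against RCL115, 2481 genes were called (11.5%), 1325 higher and 1156 lower with L359. AT3G03670, AT2G29220 and AT5G41300 again had the largest increases: AT3G03670 had 29.4, 39.1 and 41.5 CPM with L359, against 1.47, 2.55 and 8.07 CPM with RCL115. AT5G19700, a MATE efflux transporter gene, had 6.70, 9.06 and 12.1 CPM, against 0.961, 1.56 and 2.23 CPM. Neither overlapped. SDI1 with RCL115 (55.6, 86.5 and 88.2 CPM) and THAS1 (749.5, 889 and 1096 CPM) lay above the L359 values without overlap, and 12 of 19 sulfur deficiency genes were lower with L359 than with RCL115, beside 5.34% of all tested genes. The 4 largest decreases were in LOX2, TGG2, RBCS2B and ESM1, genes of leaf metabolism and defence. LOX2, a lipoxygenase of jasmonate synthesis, had 0, 0.0930 and 0.498 CPM with L359, against 0, 0.102 and 68.1 CPM with RCL115, so that the difference lay in 1 library. The shoot markers of RCL115 replicate 4 summed to 3568 CPM, against 747 to 917 CPM in the other 5, and without it 2341 genes were called (1235 higher, 1106 lower).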

How the data were processed

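Root poly(A) RNA of 222 libraries (37 groups of 6) was sequenced in pairs. According to the submitters' processing notes, reads were filtered with fastp 0.20.1 and quantified with Salmon 1.6.0. The study's methods add that the Ensembl Plants transcripts were used and that transcripts were summed to genes with tximport. The deposited table gives, for every gene and library, the authors' estimated count as a whole number, without scaling between libraries. The tximport scaling option and the strand are not given in the sources used here. Salmon divides reads among near-identical copies, so the counts of such genes are uncertain.

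The genotype and treatment given in the labels set each library's group, and replicates were numbered in accession order. The study's methods state independent biological replicates, in an experiment run more than once. The labels do not say which repeat a library belongs to, so p-values measure the spread between these libraries with the repeats pooled. No pair within a group agreed within sampling noise (smallest chi-square per degree of freedom 3.43). Totals over the 8 groups used were 10255732 to 25605850.

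All 37 groups were fitted in 1 model with edgeR 4.0.16 in R 4.3.3 (limma 3.58.1): TMM scaling, the filterByExpr filter on low counts, and the robust quasi-likelihood test with 185 residual degrees of freedom. The response differences are interaction terms. The adjusted p is Benjamini-Hochberg over all 21635 genes tested, and a gene was called below 0.05. Levels are CPM, counts scaled to TMM library sizes, and a fitted fold change of a gene with few reads depends on the prior count. The fit was tested on simulated data. A DESeq2 1.42.0 fit, other scalings, filters, thresholds and sample sets, and the leaving out of each library were tried as alternatives. Library titles 1 to 111 and 112 to 222 are the low and high number ranges.

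Of 32311 gene identifiers, 99.2% were found in the RefSeq annotation of TAIR10.1, from which names, coordinates and the 250 bases before each gene start were taken. The 31 gene lists hold 576 genes, and 8 of 594 entries found no gene. The members and lists were chosen with earlier results of these data known. Genes were named by these rules: ARF7; the 12 largest changes each way in nph4-1 that passed the test with at least 5 CPM in the higher group and no overlap; the 8 largest response differences each way with at least 5 CPM; up to 4 called members of each list with the smallest p; the 4 largest each way against L344, RCL115 and in the difference from lbd16-1, which had no call; and the 6 largest shared changes each way of the 3 genotypes with at least 5 CPM. Any other gene named in the text was chosen after its values were seen.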

Additional observations from a re-analysis of the deposited data

Results flagged for a closer look

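For ARF7 and the genes with the largest or shared changes, each nph4-1 group was examined for a library that stood apart, and for those with the largest response differences each Col 0 group as well. Of these 116 groups of 6 libraries, 6 had a library that stood apart from the other 5 by Dixon's test. Chance flags about 1 in 20 groups, and 6 of 116 is near that share. Of the 6, 5 were in Col 0 NB, but Col 0 groups were examined only for genes chosen by a large response difference. A stray Col 0 NB library itself favours that choice. AT2G01020, a ribosomal RNA gene, had 2218 CPM in Col 0 NB replicate 4, where the other libraries held 7.20 to 155 CPM. In the same library AT1G15405 had 76.2 CPM (others 2.04 to 8.67 CPM) and BXL3 6.46 CPM (others 0.584 to 2.62 CPM). BHLH38 had 51.2 CPM in Col 0 NB replicate 1, above 10.9 to 20.9 CPM in the others, and NAC3 had 7.81 CPM in Col 0 NB replicate 3, above 3.16 to 4.48 CPM. In nph4-1 L359 replicate 6, AT1G15540 had 9.95 CPM, above 3.36 to 5.67 CPM.

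The 8 genes with at least 5 CPM and the largest called differences each way between the L359 responses of nph4-1 and Col 0 were tested by the interaction term of the edgeR fit, and the values are in log2 units, nph4-1 minus Col 0. The difference was positive in AT2G01020 (4.25), BHLH38 (2.47), AT1G15405 (2.46), NAC3 (2.18), GRP3S (1.94), GLIP1 (1.60), BXL3 (1.58) and AT5G43570 (1.55). It was negative in MRN1 (-2.88), AT5G04120 (-2.58), CYP76G1 (-2.44), SDI1 (-2.25), AT1G15540 (-2.23), CYP712A2 (-2.04), HAK5 (-2.04) and CYP93D1 (-1.90). The parts that single libraries play in these values are given with the genes above, and no cause was tested.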

How the results depend on the processing

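The 2867 genes called in nph4-1 L359 against NB became 1123 with low library numbers alone, 1799 at an adjusted p under 0.01 and 461 with an absolute log2 fold change of at least 1 as well. The same settings gave 89, 256 and 147 for the 603 response differences from Col 0, 20, 99 and 35 for the 268 genes against L344, and 971, 1462 and 387 for the 2481 against RCL115. For the 3265 genes of Col 0 they gave 1644, 1798 and 474, and 2096 genes were called without Col 0 NB replicates 4 and 5 and 1185 when only the groups compared were fitted. The 893 genes shared by 3 genotypes became 325 with low and 533 with high numbers alone, 539 with only the groups compared, and 489 and 150 under the stricter thresholds. DESeq2 called 6 genes for the difference from lbd16-1, where edgeR called 0. The other settings stayed within 1.5 times: the nph4-1 comparison called 2924 genes with DESeq2 and 2668 without the filter, and the response difference 692 and 503. Leaving out 1 library at a time gave 2463 to 2795 and 448 to 789 genes.

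The sign turned in 3 response differences: AT2G01020 (-0.11) and AT1G15405 (-0.02) without Col 0 NB replicates 4 and 5, and JAZ3 (0.03) with low numbers alone. Of the 129 named genes in nph4-1, none changed sign under any setting run, and 56 lost the call under at least 1 (66 lost calls, 43 of them with the low numbers alone). Of 48 named response differences from Col 0, 41 lost the call under at least 1 setting (63 lost calls, 36 with the low numbers alone). The settings without Col 0 NB replicates 4 and 5, those without RCL115 replicate 4, those for ARF7 and for the shared genes, and the list counts were chosen after seeing the data. No paired analysis was possible because each library title is a number of its own, so the groups share no replicate number. At 6 libraries a group and these depths, genes under about 1 CPM rest on few reads, and their differences may not be detectable.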
